A study of Mus musculus with 10 samples.

Results

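The Ly6 surface protein family was followed here through 8 genes, Ly6a, Ly6c1, Ly6c2, Ly6d, Ly6e, Ly6g, Ly6i and Ly6k, which were taken by gene name from a table of 36009 genes. Their RNA was measured in the resected portion of 10 subcutaneous CT26 tumors, a mouse colorectal carcinoma line, grown in wild-type female BALB/c mice whose age the labels do not give. All tumors were collected untreated, and a hydrogel loaded with poly(I:C), a synthetic double-stranded RNA, was then applied to the residual tumor. Of the tumors, 6 came from responders, in which the residual tumor regressed completely, and 4 from non-responders, in which growth was not delayed. The sequenced tumors were chosen from the treated mice by this outcome, and no batch was given in the labels. The comparison asks which transcripts differed before treatment between tumors with either outcome.

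Ly6 proteins are small cell surface proteins that carry the cysteine-rich LU domain, shared with the urokinase receptor uPAR, and are held in the membrane by a glycosylphosphatidylinositol (GPI) anchor. In the mouse they are used as markers of blood cell lineages, and several of them are induced by interferons. Ly6a encodes Sca-1, a marker of hematopoietic stem cells that is also found on activated lymphocytes and endothelial cells. Ly6c1 and Ly6c2 encode the Ly6C antigen of inflammatory monocytes, T cell subsets and endothelium, and Ly6g encodes the antigen that defines neutrophils. Ly6e is widely expressed, modulates virus entry and encodes the receptor of syncytin A. Ly6d marks keratinocytes and early B lineage cells, and Ly6k is a gene of the testis.

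The 8 genes lie on chromosome 15 within 397.1 kb of the GRCm38 assembly, a stretch with 25 annotated genes of which 14 are protein coding. From one end to the other the order was Ly6d (chr15:74762056-74763620, minus strand), Ly6k (chr15:74796874-74799986, minus strand), Ly6e (chr15:74955051-74959905, plus strand), Ly6i (chr15:74979534-74983430, minus strand), Ly6a (chr15:74994877-74998031, minus strand), Ly6c1 (chr15:75044018-75048830, minus strand), Ly6c2 (chr15:75108158-75111970, minus strand) and Ly6g (chr15:75155240-75159126, plus strand). Ly6k overlaps Gm17189, an annotated antisense gene, and reads from the pair cannot be told apart without strand. The other members overlap no annotated gene.

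Several members are near copies of each other, which bears on how reads were assigned to them. The coding sequences of Ly6c1 and Ly6c2, each 396 bases long, differed at 9 bases and were 97.7% identical. Ly6a and Ly6i were 86.4% identical, Ly6a was 82.0% identical to Ly6c1, and Ly6e was 49.9% identical to Ly6c1, with gaps counted as differences. The first and the last 150 coding bases of Ly6c1 and Ly6c2 are shown because together they hold all 9 differing bases, which are in capitals, 6 in the first stretch and 3 in the second. They are written 5′ to 3′ along the minus strand of GRCm38 from GENCODE transcripts. The first stretch runs across an intron, from chr15:75047390-75048511 for Ly6c1 and chr15:75110548-75111667 for Ly6c2, and the second lies within one exon, at chr15:75045402-75045551 and chr15:75108543-75108692.
Ly6c1, coding bases 1 to 150: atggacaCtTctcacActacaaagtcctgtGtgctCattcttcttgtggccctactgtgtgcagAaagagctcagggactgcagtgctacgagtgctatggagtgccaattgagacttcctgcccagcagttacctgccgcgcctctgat
Ly6c2, coding bases 1 to 150: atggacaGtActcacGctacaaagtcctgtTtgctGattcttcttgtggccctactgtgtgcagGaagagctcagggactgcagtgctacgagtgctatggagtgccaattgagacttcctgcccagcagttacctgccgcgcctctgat
Ly6c1, coding bases 247 to 396: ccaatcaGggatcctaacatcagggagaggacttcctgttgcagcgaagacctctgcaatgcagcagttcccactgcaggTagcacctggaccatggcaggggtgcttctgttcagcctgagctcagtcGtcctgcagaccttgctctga
Ly6c2, coding bases 247 to 396: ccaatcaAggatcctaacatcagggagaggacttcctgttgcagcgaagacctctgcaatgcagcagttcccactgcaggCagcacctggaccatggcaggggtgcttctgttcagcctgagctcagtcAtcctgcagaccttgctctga
Between coding bases 66 and 253 the genes were identical over 188 bases, a run longer than a single 150-base read.

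The stretches upstream of the start sites were compared for the same pair. Over the 250 bases before their outermost RefSeq start sites (GRCm38.p6), Ly6c1 and Ly6c2 were 57.7% identical, at 164 of 284 aligned positions with gaps counted. The windows are shifted against each other, since that of Ly6c2 starts within the stretch matching the Ly6c1 window and ends beyond it. Gaps at both ends therefore count as differences, and the value cannot be set against the coding identity. The stretches lie at chr15:75048838-75049087 and chr15:75111972-75112221 and are written along the minus strand, with the letters TATAAA in capitals where they occurred.
Ly6c1, upstream 250 bases: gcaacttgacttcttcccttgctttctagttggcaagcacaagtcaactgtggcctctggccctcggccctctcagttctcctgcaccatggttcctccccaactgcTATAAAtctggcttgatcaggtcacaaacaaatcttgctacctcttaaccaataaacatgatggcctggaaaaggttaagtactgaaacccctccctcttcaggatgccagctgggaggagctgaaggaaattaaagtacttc
Ly6c2, upstream 250 bases: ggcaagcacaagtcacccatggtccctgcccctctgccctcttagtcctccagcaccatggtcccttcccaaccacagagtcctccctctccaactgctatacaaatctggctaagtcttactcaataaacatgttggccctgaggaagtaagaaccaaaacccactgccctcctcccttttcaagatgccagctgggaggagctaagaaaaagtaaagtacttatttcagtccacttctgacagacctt
RefSeq promoter entries were used for 3 members, Ly6c1, Ly6c2 and Ly6g, with 6 start sites in all. The promoter set used here held no entry for Ly6a, Ly6d, Ly6e, Ly6i and Ly6k. On both strands of these 6 windows, the letters GAAANNGAA, of the type bound by interferon-stimulated gene factors, were not found, and neither was TTCNNNGAA, of the type bound by STAT factors. Windows with these letters made up 7.13% and 7.02% of 32851 promoters of the same length, and TATAAA, found at 1 of the Ly6c1 and both of the Ly6g start sites, occurred in 12.4%. The first and second of these motifs can overlap each other. The absence of these letters from the windows says nothing of whether a factor acts on the genes.

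The share of a gene's transcript sequence that occurs in no other gene was taken as a rough measure of how separable its reads were. Words of 31 bases were pooled over all annotated transcripts of a gene, so the share is not that of its coding transcript alone. Ly6c2 had 2714 such words from 4 transcripts, while its longest coding transcript has 822 bases. Its share can therefore overstate how far reads of the coding transcript can be told from Ly6c1. Of the 31-base words in the transcripts of Ly6c1, 53.2% were found in no other gene. Ly6c1 shared 33.0% of its words with Ly6c2 and 15.7% with Ly6a. The share found in no other gene was 68.1% for Ly6a, 76.2% for Ly6c2, 80.8% for Ly6i and 90.5% for Ly6g. Ly6d and Ly6e were nearly free of such overlap, with 100% and 99.6%, while Ly6k had 61.0%, with 39.0% of its words also in Gm17189. Values of Ly6a, Ly6c1, Ly6c2 and Ly6i are therefore given both singly and as sums, which do not depend on the split between the summed genes.

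**Figure D1:**
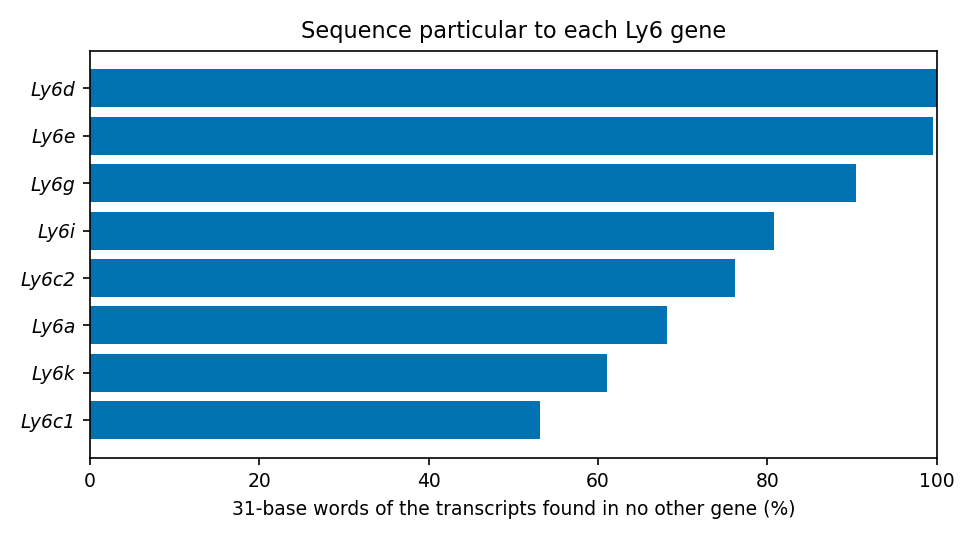
Bars give, for each Ly6 gene on the vertical axis, the percentage of the 31-base words of its annotated transcripts that occur in no other gene (horizontal axis). Ly6c1 has the lowest value, 53.2%, and Ly6d the highest, 100%.

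Libraries held between 23374649 and 38042544 estimated counts. Expression is given in CPM, the usual depth-scaled count, with library totals corrected by the trimmed mean of M values (TMM). Tumors are numbered 1 to 6 among responders and 1 to 4 among non-responders, and these numbers pair no tumors. Epithelial markers were looked at beside the labelled tumor origin, which they do not decide. Krt18 had at most 3 counts in any tumor, Vil1 at most 4, Epcam between 3 and 19, Krt8 between 0 and 14 and Krt19 between 0 and 20. Cdh1 had 79 to 233 counts and Cdx2 13 to 40, and Krt20 was at 29.1 CPM in responders and 52.9 CPM in non-responders on average.

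Of the 8 members, 5 passed the filter on low counts and were tested, Ly6a, Ly6c1, Ly6c2, Ly6e and Ly6i, and Ly6d, Ly6g and Ly6k were not tested. Levels can be compared between genes only per length, and CPM per kb of the longest coding transcript is used for this. Over the 10 tumors Ly6e averaged 370 CPM per kb, Ly6a 335, Ly6c1 97.0, Ly6c2 25.4 and Ly6i 1.72. The order of Ly6e and Ly6a was not fixed, since Ly6e was the higher in 1 of 6 responders and 3 of 4 non-responders. In every tumor Ly6a was above Ly6c1 (by 2.40- to 4.21-fold), Ly6c1 above Ly6c2 (by 3.14- to 4.45-fold) and Ly6c2 above Ly6i (by 10.2- to 33.6-fold). These ratios move with the choice of transcript length, and for the paralogs also with how reads were split.

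All 5 members tested had a higher estimate in responders, as did 48.2% of the 16041 genes tested, and 1 of the 5, Ly6c2, passed an adjusted p of 0.05 in edgeR's quasi-likelihood test. Over all genes tested 8.06% passed, 4.71% higher and 3.35% lower in responders. At an unadjusted p under 0.05, 4 of the 5 passed, all higher in responders, beside 29.1% of all genes in either direction and 15.6% in that direction. The median log2 fold change of the 5 was 0.85, beside -0.009 over all genes tested. The groups did not overlap for 1 of the 5, with every responder above every non-responder, beside 10.4% of all genes with no overlap in either direction and 5.84% with every responder higher. The 5 genes are neighbors and in part near copies, so they are not independent of each other.

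Ly6c2, of the Ly6C antigen, was higher in responders. Its level was 24.2, 26.4, 28.7, 21.1, 31.7 and 20.5 CPM in responders 1 to 6, with a median of 25.3 CPM. In non-responders 1 to 4 it was 7.71, 19.1, 16.4 and 12.8 CPM. Every responder stood above every non-responder, although responder 6 and non-responder 2 lay close together. The means were 25.5 ± 4.37 CPM (SD, n = 6) and 14.0 ± 4.92 CPM (SD, n = 4), and the log2 fold change was 0.86 (SE 0.22) with an adjusted p of 0.0401 by edgeR. The call was lost on leaving out responder 1, 2, 3 or 5, and likewise non-responder 1, 3 or 4, with log2 fold changes from 0.67 to 0.95 and adjusted p from 0.0593 to 0.101. Calls over all genes moved with the same omissions, to 16 without non-responder 1, 17 without responder 3 and 0 without non-responder 4 (where 4106 genes had an unadjusted p under 0.05), from 1293 with all tumors.

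Ly6c1, the near copy of Ly6c2, was estimated at a similar fold and missed the threshold. It reached 104.6, 103.5, 92.5, 96.0, 115.2 and 86.6 CPM in responders 1 to 6 (median 99.7 CPM) and 25.8, 87.2, 58.1 and 49.7 CPM in non-responders 1 to 4. Responder 6 lay just under non-responder 2, and the other 5 responders were above all non-responders. The log2 fold change was 0.85 (SE 0.25), with an adjusted p of 0.0548 by edgeR. Without non-responder 2 it was 1.16, with an adjusted p of 0.0178, and DESeq2 and limma-voom placed it at adjusted p values of 0.0160 and 0.0418.

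Summed, Ly6c1 and Ly6c2 gave 125.2 ± 13.5 CPM among responders (SD, n = 6), against 69.2 ± 30.1 CPM among non-responders (SD, n = 4). The responders, from 107.1 to 146.9 CPM, did not overlap the non-responders, from 33.5 to 106.2 CPM, with a gap narrower than the spread of either group. The log2 fold change was 0.86 (SE 0.24) with an adjusted p of 0.0499 by edgeR, at the edge of the threshold, and 9 of the 10 fits that left out 1 tumor did not pass it, the exception being the fit without non-responder 2 (adjusted p = 0.0180). The balance within the pair was also compared. Ly6c2 made up 18.8%, 20.3%, 23.7%, 18.0%, 21.6% and 19.2% of the counts of the pair in responders 1 to 6, and its share was 23.0%, 18.0%, 22.0% and 20.5% in non-responders 1 to 4. The difference in means was -0.608 percentage points (exact two-sided permutation p = 0.671 over 210 splits, where 0.00476 is the smallest possible), smaller than the SD within either group, which was 2.09 and 2.21 percentage points. How much of this share reflects the read split was not tested.

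Ly6a, the Sca-1 gene, varied more among non-responders than any other member above 10 CPM. It was measured at 443.8, 394.5, 356.1, 336.2, 467.3 and 331.0 CPM in responders 1 to 6 (median 375.3 CPM) and at 70.2, 343.7, 276.4 and 182.7 CPM in non-responders 1 to 4. Non-responder 1 was 6.66-fold below the highest tumor, responder 5, while non-responder 2 lay among the responders. Means were 388.1 ± 57.3 CPM (SD, n = 6) and 218.2 ± 119 CPM (SD, n = 4), and the log2 fold change of 0.83 (SE 0.33) did not pass, with an adjusted p of 0.124 by edgeR. Without non-responder 1 the log2 fold change was 0.54, with an adjusted p of 0.125.

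Ly6i, a close relative of Ly6a expressed in myeloid cells, was low throughout. Its level was 2.56, 2.69, 2.13, 1.95, 4.39 and 1.49 CPM in responders 1 to 6 (median 2.35 CPM) and 0.323, 1.68, 1.39 and 1.24 CPM in non-responders 1 to 4. Responder 5 was the highest and non-responder 1 the lowest, 13.6-fold apart, and responder 6 fell within the non-responders. The log2 fold change was 1.13 (SE 0.39), with an adjusted p of 0.0891 by edgeR and 0.0284 by DESeq2. Summed over Ly6a, Ly6c1, Ly6c2 and Ly6i, the level was 515.8 ± 70.8 CPM among responders (SD, n = 6) and 288.6 ± 149 CPM among non-responders (SD, n = 4), for a log2 fold change of 0.84 (SE 0.31) with an adjusted p of 0.101 by edgeR.

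Ly6e, the syncytin A receptor gene, was the member with the most counts and differed little between tumors. It gave 1051, 775.2, 863.6, 785.5, 1061 and 753.8 CPM in responders 1 to 6 (median 824.6 CPM) and 780.1, 768.9, 795.0 and 797.6 CPM in non-responders 1 to 4. Responders 1, 3 and 5 were above all non-responders and the other 3 lay within or below their range. The SD was 140.0 CPM among responders (n = 6) and 13.4 CPM among non-responders (n = 4). The log2 fold change was 0.17 (SE 0.10), with an adjusted p of 0.310 by edgeR and a range of 0.11 to 0.21 when 1 tumor was left out. Syna, which encodes syncytin A, was present at 82 to 113 counts in every tumor, or 2.29 to 3.82 CPM.

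**Figure D2:**
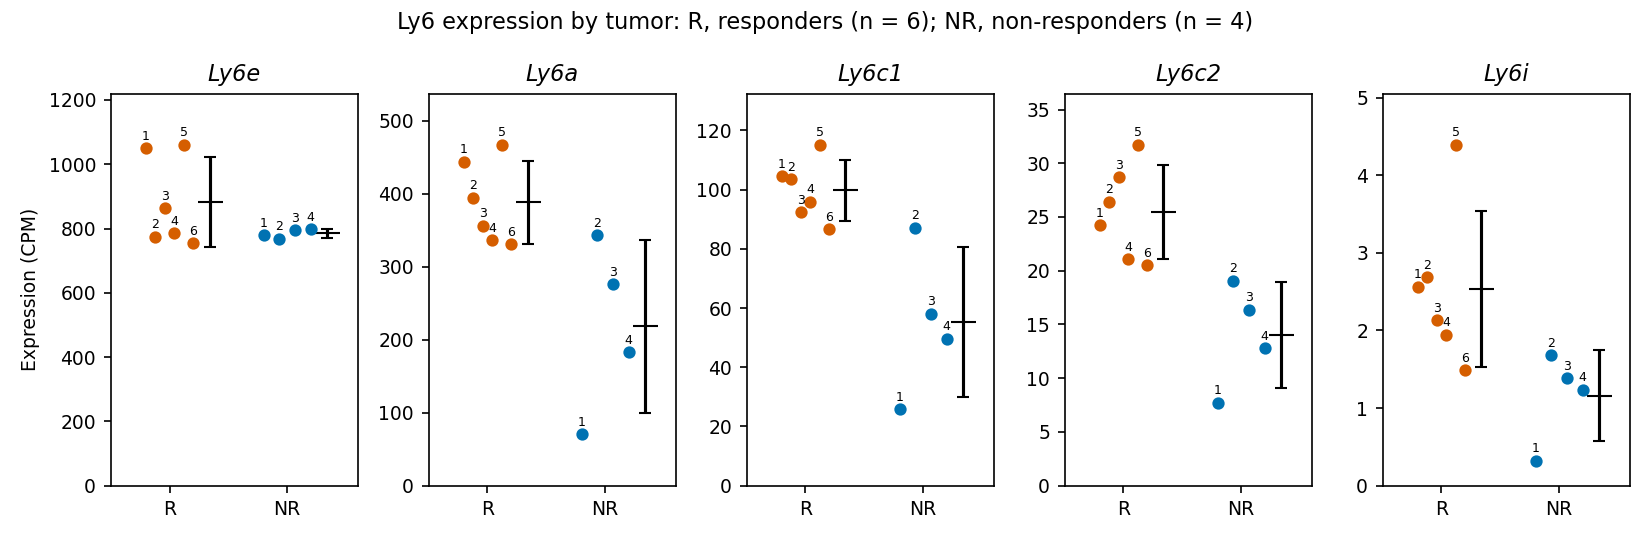
Each panel plots the level of 1 tested Ly6 gene in CPM (vertical axes, from 0) in responders (R, 6 tumors) and non-responders (NR, 4 tumors), with points numbered by tumor and bars for mean ± SD. For Ly6c2 every responder, from 20.5 CPM up, lies above every non-responder, up to 19.1 CPM, while Ly6e points of both groups overlap.

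**Figure D3:**
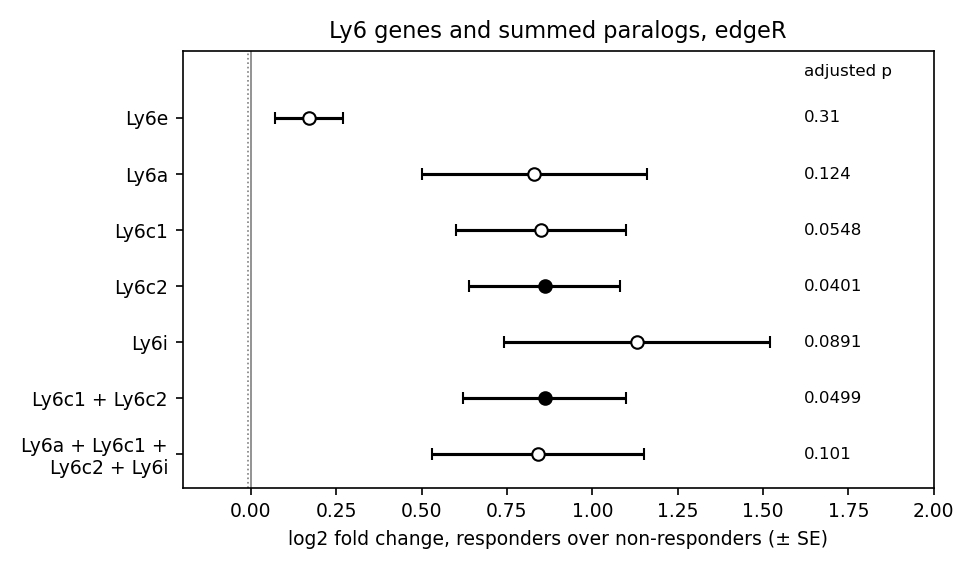
Points give the log2 fold change of responders over non-responders (horizontal axis) with bars for the SE, for 5 Ly6 genes and 2 sums, with the adjusted p of edgeR's quasi-likelihood test at the right. Filled points mark an adjusted p under 0.05, which Ly6c2 (0.0401) and the sum of Ly6c1 and Ly6c2 (0.0499) reached, and the dotted line marks the median of all genes, -0.009.

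Ly6d, Ly6g and Ly6k were at or near the floor. Ly6g, the neutrophil antigen gene, had 1 count in responders 1, 2, 4, 5 and 6 and in non-responder 1, and 0 in the other 4 tumors. A limit of 3 counts corresponds to between 0.0783 and 0.130 CPM in these libraries, for counting error alone. The other neutrophil genes ranged widely. Csf3r had 916 to 2814 counts, S100a9 283 to 1321, Cxcr2 152 to 506 and S100a8 98 to 434. Mmp8 had 17 to 43 counts, Retnlg 8 to 47, Ltf 3 to 20, Ngp 0 to 13, Camp 0 to 5 and Elane at most 1. Ly6k had 0, 1, 1, 2, 0 and 0 counts in responders 1 to 6, against 0, 2, 2 and 1 in non-responders 1 to 4, so no group difference was detectable at this depth.

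Ly6d, the keratinocyte and B lineage gene, had 2, 2, 0, 1, 4 and 0 counts in responders 1 to 6, against 0, 8, 2 and 3 in non-responders 1 to 4. Non-responder 2 was the highest, at 8 counts. The same tumor held 83 counts of Krt5 and 58 of Krt14, keratins of the basal epidermis, and 24 of Dsg3, a desmosomal cadherin, where the other 9 tumors had at most 2 counts of each. Trp63, the transcription factor of basal keratinocytes, did not follow this pattern, with 26 counts in that tumor, 21 to 91 in responders and 11 to 16 in the other 3 non-responders. Pinlyp, another LU domain gene, had 26 counts in that tumor and at most 1 in the others. Over the list of 9 keratinocyte genes, summed levels ran from 4.06 to 5.68 CPM in responders and from 3.21 to 10.5 CPM in non-responders, with Krt1 and Lor at no more than 1 count in any tumor. The part of skin RNA in the Ly6d counts was not tested. In a fit without the filter, Ly6d, Ly6g and Ly6k had adjusted p values of 0.454, 0.589 and 0.587 by edgeR.

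The composition of the family counts differed between tumors mainly in Ly6e and Ly6a. Shares are parts of the same total, so that of Ly6e rises where Ly6a is low, without a change in its own level. In non-responder 1 Ly6e was at 780.1 CPM and Ly6a at 70.2 CPM. Ly6e made up 63.0% ± 1.82 of the counts of the 8 members among responders (SD, n = 6) and 74.2% ± 10.8 among non-responders (SD, n = 4), from 63.0% in non-responder 2 to 88.2% in non-responder 1. Ly6a made up 27.8% ± 1.31 and 19.4% ± 8.82, Ly6c1 7.18% ± 0.575 and 4.97% ± 1.73, and Ly6c2 1.83% ± 0.237 and 1.27% ± 0.300 (SD, n = 6 and n = 4). Non-responder 2 had nearly the composition of the responders, and non-responder 1 was farthest from it. Together the members took 0.120% to 0.168% of the counts of a responder and 0.0885% to 0.123% of those of a non-responder, with non-responder 2 at the level of responder 4.

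**Figure D4:**
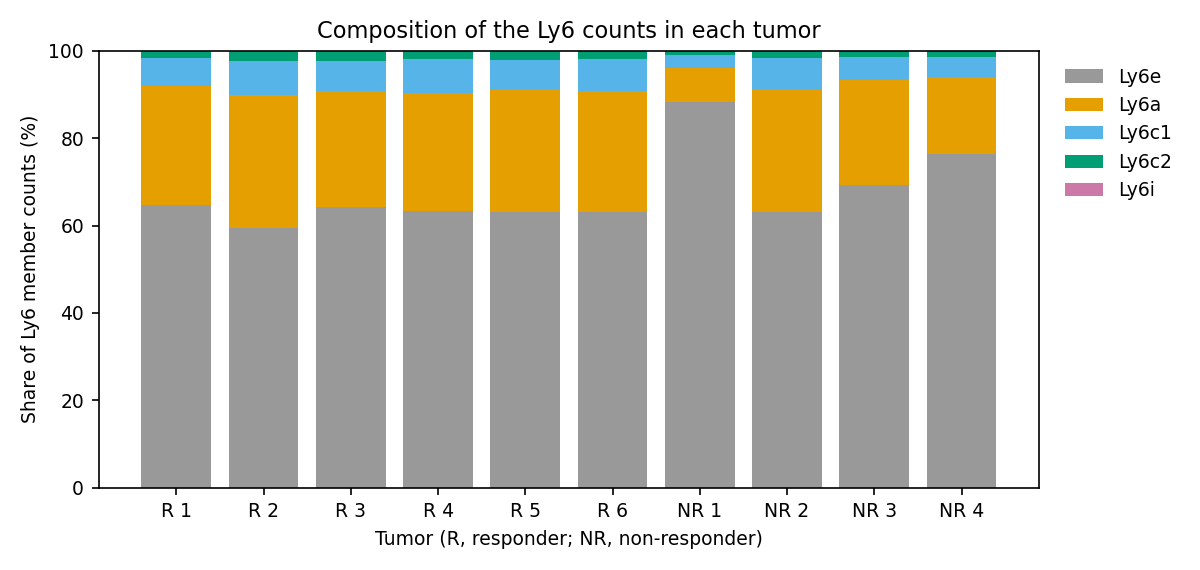
Stacked bars give the share of each Ly6 gene in the counts of the 8 members (vertical axis, %) for 6 responders (R) and 4 non-responders (NR). Ly6e takes 59.5% to 64.6% in responders and 63.0% to 88.2% in non-responders, and Ly6d, Ly6g and Ly6k are too few to be drawn.

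Ly6a, Ly6c1, Ly6c2 and Ly6i shared their order of non-responders but not that of responders. All 4 genes were lowest in non-responder 1, followed among non-responders by 4, 3 and 2. Each of the 5 members tested was highest in responder 5 and, among responders, lowest in responder 6. Between these the order changed, with responder 3 second highest for Ly6c2, at 28.7 CPM, and second lowest of the responders for Ly6c1, at 92.5 CPM. On log2 CPM centred on the mean of each gene, non-responder 1 stood at -2.04 for Ly6a, -1.55 for Ly6c1, -1.33 for Ly6c2 and -2.18 for Ly6i, but at -0.10 for Ly6e. Library totals were 29065126 to 38042544 in responders and 23374649 to 32986456 in non-responders, and 3 of the 4 non-responders had a smaller library than every responder. In libraries thinned to the smallest total, log2 fold changes were 0.82 for Ly6a, 0.86 for Ly6c1, 0.85 for Ly6c2 and 1.24 for Ly6i. With all counts they were 0.83, 0.85, 0.86 and 1.13. The part of depth in the ranking of tumors was not tested.

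**Figure D5:**
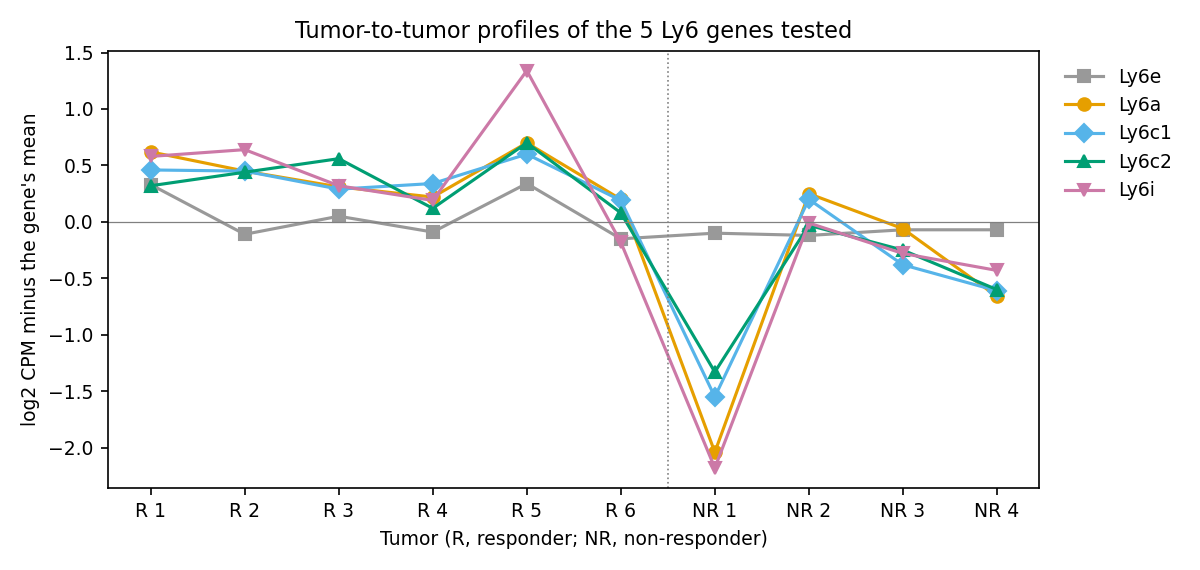
Lines give the log2 CPM of each tested Ly6 gene minus its mean over the 10 tumors (vertical axis) by tumor (horizontal axis), with responders (R) left and non-responders (NR) right of the dotted line. Ly6a, Ly6c1, Ly6c2 and Ly6i dip in NR 1, to between -1.33 and -2.18, and Ly6e stays between -0.15 and 0.34.

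The likeness of profiles was measured as the mean absolute difference in centred log2 CPM over the 10 tumors, ranked among 13706 genes with a mean of at least 1 CPM. The tumors share their depth and cell makeup across genes, so these values are descriptions. Ly6a and Ly6c1 were 0.131 apart, Ly6c1 and Ly6c2 0.147, Ly6a and Ly6c2 0.204, and Ly6a and Ly6i 0.215. Ly6c1 was at rank 24 among the genes nearest to Ly6a, and how far shared sequence bears on these distances was not tested. Ly6e was 0.390 to 0.535 from the other 4.

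The genes nearest to each member were chosen by this likeness, which fixes their differences between groups, so no test is given for them. Nearest to Ly6a were the guanylate-binding proteins Gbp5 (0.0479), Gbp9 (0.0529) and Gbp7 (0.0651). Nearest to Ly6c1 were Tap1 (0.0911), a subunit of the peptide transporter of antigen presentation, H2-DMb2 (0.105), of class II peptide loading, and Il12rb1 (0.107), a chain of the interleukin-12 receptor. Ly6c2 was nearest to Fcgr1 (0.0677), the high-affinity IgG receptor of myeloid cells, Themis2 (0.0811) and Phf11b (0.0822). For Ly6i they were Calhm6 (0.122), Gbp8 (0.171) and Sectm1a (0.176). Ly6e was nearest to Elf4 (0.0648), an ETS family transcription factor, Prr13 (0.0684) and Tmem181a (0.0704), among genes that vary little.

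Of 32 other genes of the Ly6/uPAR family on the list, 12 were tested and 0 passed by edgeR or limma-voom, with 3 at an unadjusted p under 0.05, while DESeq2 called 2 higher and 1 lower. Over all genes, 8.06% passed by edgeR, 29.1% had such an unadjusted p and 16.2% passed by DESeq2. Estimates were higher in responders for 6 of the 12, with a median log2 fold change of -0.03. Plaur, the urokinase receptor itself, was the most abundant, at 135 ± 21.3 CPM among responders (SD, n = 6), against 142 ± 20.6 CPM among non-responders (SD, n = 4). Lynx1, a modulator of nicotinic receptors, was at 14.0 ± 2.17 and 11.8 ± 1.26 CPM, and Cd59b, a complement inhibitor, at 7.14 ± 0.641 and 9.29 ± 1.89 CPM (SD, n = 6 and n = 4), with adjusted p values of 0.191 and 0.0785 by edgeR. At most 3 counts in any tumor were found for 12 of the 32.

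Genes that build and attach the GPI anchor, which Ly6 proteins need to reach the cell surface, were compared in the same way. Of 28 listed, 27 were measured and tested, 18 had a higher estimate in responders, and 0 passed by edgeR, DESeq2 or limma-voom, with 4 at an unadjusted p under 0.05. The shares over all genes were again 8.06% by edgeR, 16.2% by DESeq2 and 29.1% at that unadjusted p, and 6.75% by limma-voom. Their median log2 fold change was 0.03, and their summed level ran from 918.7 to 993.9 CPM in responders and from 898.9 to 928.5 CPM in non-responders.

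Interferon-stimulated genes were all higher in responders by estimate, at 24 of 24, beside 48.2% of all genes. Of these, 1 passed the threshold by edgeR beside the 4.71% of all genes called higher. That gene was Bst2, or tetherin, which holds virus particles at the cell surface, at 202 ± 12.7 CPM among responders (SD, n = 6), against 138 ± 33.6 CPM among non-responders (SD, n = 4), for a log2 fold change of 0.55 with an adjusted p of 0.0378. The median log2 fold change of the list was 0.60. At an unadjusted p under 0.05 there were 19 of the 24, all higher in responders. The shares of all genes were 15.6% in that direction and 29.1% in either. DESeq2 called 10 of the 24 and limma-voom 1, beside 16.2% and 6.75% of all genes. Their summed level ran from 3283 to 4577 CPM in responders and from 975.5 to 3557 CPM in non-responders.

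Cells that carry Ly6 proteins may differ in number between tumors, and in bulk tissue fewer cells of a type and less RNA per cell cannot be told apart. Of 8 macrophage genes, 5 passed by edgeR, all higher in responders, beside the 4.71% of all genes called higher. Among them were C1qc with a log2 fold change of 0.76 (adjusted p = 0.0229), C1qa with 0.65 (adjusted p = 0.0295), Cd68 with 0.47 (adjusted p = 0.0299) and Adgre1, which encodes F4/80, with 0.87 (adjusted p = 0.0310). Of the 3 that did not pass, Mrc1 had a log2 fold change of -0.13 (adjusted p = 0.494), Mertk one of 0.03 (adjusted p = 0.888) and Csf1r one of 0.24 (adjusted p = 0.130). Of all 8, 6 had an unadjusted p under 0.05 by edgeR, beside 29.1% of all genes. The summed level of the 8 was 2919 to 4343 CPM in responders and 2052 to 2761 CPM in non-responders.

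Over all genes, edgeR called 4.71% higher and 3.35% lower in responders, and 29.1% had an unadjusted p under 0.05. DESeq2 called 16.2% and limma-voom 6.75%, in either direction. T cell genes had 2 of 10 pass by edgeR, Lck (log2 fold change 1.11, adjusted p = 0.0413) and Cd8b1 (1.81, adjusted p = 0.0472). All 10 had a higher estimate in responders, beside 48.2% of all genes, with a median log2 fold change of 1.19. By edgeR 9 of them had an unadjusted p under 0.05, beside 15.6% of all genes in that direction. Of the 10, limma-voom called 0 (8 at an unadjusted p under 0.05) and DESeq2 called 7. Their sums were 147.3 to 372.3 CPM in responders and 86.4 to 163.7 CPM in non-responders. Endothelial genes had 1 of 8, Eng (0.64, adjusted p = 0.0266), with sums of 116.7 to 187.0 CPM and 90.7 to 132.5 CPM. Inflammatory monocyte genes had 0 of 7 by edgeR and limma-voom and 2 by DESeq2, with 3 at an unadjusted p under 0.05. Estimates were higher in responders for 5 of the 7, beside 48.2% of all genes. Among these were Ms4a4c (0.69) and Ccr2 (0.61), each with an adjusted p of 0.0638 by edgeR. Fn1 (-0.21, adjusted p = 0.38) and F13a1 (-0.05, adjusted p = 0.892) were lower. Sums of 4659 to 6870 CPM in responders and 5282 to 8286 CPM in non-responders were mostly Fn1, so they say little of the other genes. Neutrophil genes had 0 of 6 by all 3 tools, with 1 at an unadjusted p under 0.05 and sums of 76.1 to 156.1 CPM and 60.8 to 127.3 CPM.

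The remaining lists are set beside the same shares over all genes, 4.71% higher and 3.35% lower by edgeR, 16.2% by DESeq2, 6.75% by limma-voom and 29.1% unadjusted. For B cells 0 of 5 passed by edgeR and limma-voom and 2 by DESeq2, with 2 at an unadjusted p under 0.05. Their sums were 4.93 to 10.9 CPM in responders and 3.55 to 6.42 CPM in non-responders. For keratinocytes 0 of 2 passed by edgeR and limma-voom and 1 by DESeq2, with 1 at an unadjusted p under 0.05. Fibroblast genes had 1 of 8 lower, Pdgfrb (log2 fold change -0.58, adjusted p = 0.0266 by edgeR), with sums of 3695 to 4264 CPM and 3254 to 4639 CPM. Skeletal muscle genes had 3 of 8 higher by edgeR, Myh1 (1.05, adjusted p = 0.0330), Acta1 (1.02, adjusted p = 0.0391) and Ckm (1.33, adjusted p = 0.0464). Of the 8, limma-voom called 2 and DESeq2 6, and 7 had an unadjusted p under 0.05 by edgeR. Muscle sums were 507.7 to 1399 CPM in responders and 375.5 to 506.4 CPM in non-responders. For the epithelial list 0 of 4 passed by edgeR and limma-voom and 1, lower, by DESeq2, with 3 at an unadjusted p under 0.05 and sums of 17.5 to 42.1 CPM and 40.3 to 84.8 CPM. The part of each cell type in the Ly6 levels was not tested.

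Set against Ptprc, which encodes the leukocyte antigen CD45, the members differed in how far the groups overlapped. Ptprc itself was at 380 ± 63.1 CPM among responders (SD, n = 6), against 251 ± 55.6 CPM among non-responders (SD, n = 4), with every responder higher. Ly6c2 per Ptprc was 0.0669 ± 0.00491 and 0.0545 ± 0.00845, and all 6 responders, from 0.0622, remained above all non-responders, the highest of which was non-responder 2 at 0.0620. Ly6a per Ptprc was 1.03 ± 0.0997 and 0.818 ± 0.318, and Ly6c1 per Ptprc 0.265 ± 0.0257 and 0.211 ± 0.0577, each with 1 of 6 responders above all non-responders. Ly6i per Ptprc was 0.00650 ± 0.00151 and 0.00437 ± 0.00174, with 5 of 6. Ly6e per Ptprc was lower in responders, at 2.33 ± 0.261 and 3.27 ± 0.792, while Ly6e itself averaged 881.8 and 785.4 CPM. Since Ly6e is widely expressed, its ratio is not a level per leukocyte. These ratios carry no test.

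Against Pecam1, which encodes the endothelial antigen CD31, the overlap was wider for Ly6c2. Pecam1 was at 76.0 ± 17.4 CPM among responders (SD, n = 6), against 56.4 ± 15.8 CPM among non-responders (SD, n = 4). Ly6c2 per Pecam1 was 0.341 ± 0.0529 and 0.249 ± 0.0644, with 3 of 6 responders above all non-responders, and Ly6a per Pecam1 5.19 ± 0.528 and 3.76 ± 1.77, with 2 of 6. Non-responder 1 stayed the lowest tumor for Ly6a by either ratio, at 0.388 per Ptprc and 1.94 per Pecam1.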

How the data were processed

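RNA was measured by polyA sequencing of 10 CT26 tumors in 150-base read pairs. After a FastQC review, the authors quantified transcripts with Kallisto, and tximport combined them by gene on mm10 (GRCm38). The deposited values are estimated counts per gene, not scaled to depth, and 45.1% of them are fractional. The annotation release, scaling option and strand setting are not given in the sources used here. Pseudoalignment splits reads between transcripts that share sequence, so counts of near-identical paralogs are uncertain. BALB/c carries another Ly6 haplotype than the reference strain, and the effect on these counts was not tested. Rows without a gene name (9633) stayed in library sizes and tests.

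Counts were rounded and analyzed with edgeR 4.0.16 in R 4.3.3. Genes were filtered by filterByExpr (minimum count 10, minimum total 15), which left 16041, normalized by TMM and tested by the quasi-likelihood test, two-sided, with Benjamini-Hochberg adjustment over all genes tested and a threshold of 0.05. Groups came from the response in the labels, with no covariate. Each tumor is 1 mouse as far as the labels show, and the p-values measure the spread between these tumors. The SE was derived as the ratio of the log2 fold change to the root of F. Log2 CPM used a prior count of 2. Sums of paralogs replaced their rows in the same fit. In data simulated over 16041 genes, 82 of 100 genes changed by 1 on the log2 scale and 97 of 100 changed by 2 were called, with 5 false calls. Genes were drawn independently there, with no variation shared between tumors. These counts therefore do not give the recovery or the false calls in the real tumors. DESeq2 1.42.0, limma-voom (limma 3.58.1), other normalizations, no filter, libraries thinned to the smallest total and the omission of each tumor were tried as alternatives.

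Transcript words of 31 bases, coding sequences and coordinates came from GENCODE transcripts of GRCm38, and coding sequences and promoters were aligned with Biopython 1.88. All 8 members are named, with genes of the lists past the threshold (at most 4 per list and direction, by smallest p), the 3 most abundant of the family list and the 3 genes nearest in profile to each tested member. Other genes (markers at the floor, the keratinocyte genes of non-responder 2, the neutrophil genes, Mrc1, Mertk, Csf1r, Krt20, Fn1, F13a1, Ms4a4c, Ccr2) were named after their values were seen. The members and lists were chosen with earlier results of these data known.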

Additional observations from a re-analysis of the deposited data

How the results depend on the processing

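In every alternative, the log2 fold changes of Ly6a, Ly6c1, Ly6c2, Ly6e and Ly6i were higher in responders. The number of members past the threshold, 1, was 3 by DESeq2 (Ly6c1, Ly6c2 and Ly6i), 2 by limma-voom (Ly6c1 and Ly6c2) and 0 to 2 when each tumor was left out in turn. Ly6c1 passed by DESeq2 (0.86, adjusted p = 0.0160) and limma-voom (0.97, adjusted p = 0.0418), Ly6i by DESeq2 (1.13, adjusted p = 0.0284), and the sum of 4 paralogs by DESeq2 (0.84, adjusted p = 0.0425). The sum of Ly6c1 and Ly6c2 missed the threshold with library totals alone (0.85, adjusted p = 0.0502). With each tumor left out in turn, log2 fold changes ran from 0.67 to 1.05 for Ly6c2, 0.62 to 1.16 for Ly6c1, 0.54 to 1.14 for Ly6a, 0.83 to 1.36 for Ly6i, 0.63 to 1.14 for the sum of Ly6c1 and Ly6c2 and 0.57 to 1.14 for the sum of 4, which passed without non-responder 2 (adjusted p = 0.0387). The Ly6c2 share of the pair ran from -1.58 to 0.114 percentage points and turned sign without non-responder 1 (0.114, exact permutation p = 0.929). The cause was not tested. Genes called over the whole table, 1293, came to 2602 by DESeq2 and 931 of 25768 without the filter, and to between 0 and 1897 with a tumor left out. Dixon's test for an outlying tumor flagged none in 14 groups of values, which covered the tested members, the Ly6c2 share and the family total. In groups this small the test has little power, so it does not exclude an outlying tumor.

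The groups were formed by outcome from different mice, as far as the labels show, so there were no pairs to analyze. Depth limits Ly6d, Ly6g and Ly6k, whose counts were at most 8, and 4 non-responders limit every comparison.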
